A study of Mus musculus with 70 samples.

Results

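The genes described here are 9 complement components and receptors, taken by symbol from the table of lung counts: C1qa, C1qb, C1qc, C4b, C3, Cfb, Cfp, C3ar1 and C5ar1. They are 9 of 24420 genes, and each was counted in all 70 lung libraries and entered every test. The mice carried a targeted allele of Slc26a4, the gene of the anion exchanger pendrin, in strain 129S-Slc26a4tm1Erg/AjgJ, and were progeny of heterozygous breeders, genotyped as homozygous knockout (KO) or homozygous wildtype (WT). The allele is carried by the whole animal. All were males of about 3 months at exposure, which was by inhalation in whole-body chambers. Silica mice breathed 15 mg/m3 of Min-U-Sil5 crystalline silica for 6 hours a day on 4 days, and the others breathed air. The groups were KO silica, KO air, WT silica and WT air 1 day, 3 months or 9 months after exposure, with 6 mice each, except 5 in WT silica and 5 in WT air at 9 months. Total RNA came from a piece of each lung, so the values are of mixed tissue.

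Complement is a set of plasma and tissue proteins that tag particles, microbes and dying cells for uptake. The classical route begins with C1q, a recognition molecule of 3 kinds of chain, and passes through C4. The alternative route runs on factor B and is held together by properdin, and all routes meet at C3, whose fragments coat the target. The released fragments C3a and C5a act on leukocytes through the receptors C3ar1 and C5ar1. In lung, C3 and factor B are made by epithelial cells and leukocytes, and C1q mainly by macrophages and dendritic cells.

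In the GENCODE annotation of GRCm38, the build of the counts (mm10), all 9 genes lie on the minus strand. C1qb (chromosome 4, 136880129 to 136886187), C1qc (136889804 to 136893065) and C1qa (136895917 to 136898803) are neighbours. C4b (chromosome 17, 34728380 to 34743882) and Cfb (34856374 to 34862518) lie in the major histocompatibility region, and C3 lies further along the same chromosome (57203970 to 57228136). Cfp is on chromosome X (20925454 to 20931555), C3ar1 on chromosome 6 (122847138 to 122856161) and C5ar1 on chromosome 7 (16246743 to 16259540). The counts of C4b are uncertain to the extent that reads shared with its near-identical neighbour C4a were split or dropped. Cfb lies within the annotated gene Gm20547 on the same strand, so reads of the overlap may not have been assigned to Cfb alone.

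RefSeq's promoter table (GRCm38.p6) held 6 of the 9 genes, and the 250 bases before the start of C3, C1qb and C1qc are shown because C3 was called higher after silica in both genotypes at 1 day and 3 months, and C1qb and C1qc had some of the largest changes in KO lungs at 3 months. Starts are those of RefSeq and can differ from the GENCODE positions above. Much of the C1qc and C5ar1 windows lies within those genes as placed by GENCODE. Capitals mark the C/EBP motif TTNNGCAA in the C3 sequence and the PU.1 core GAGGAA in the C1q sequences, each on either strand.
C3 chr17:57228137-57228386 minus strand: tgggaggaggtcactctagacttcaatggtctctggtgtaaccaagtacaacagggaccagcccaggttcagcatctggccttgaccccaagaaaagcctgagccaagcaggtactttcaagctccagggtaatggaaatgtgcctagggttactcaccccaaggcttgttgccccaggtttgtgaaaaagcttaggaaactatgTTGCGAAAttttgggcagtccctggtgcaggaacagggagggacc
C1qb chr4:136886201-136886450 minus strand: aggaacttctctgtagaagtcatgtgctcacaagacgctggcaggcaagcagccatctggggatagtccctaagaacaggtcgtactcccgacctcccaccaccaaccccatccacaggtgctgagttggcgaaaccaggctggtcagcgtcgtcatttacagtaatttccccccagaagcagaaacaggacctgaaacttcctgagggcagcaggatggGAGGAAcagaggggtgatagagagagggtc
C1qc chr4:136892915-136893164 minus strand: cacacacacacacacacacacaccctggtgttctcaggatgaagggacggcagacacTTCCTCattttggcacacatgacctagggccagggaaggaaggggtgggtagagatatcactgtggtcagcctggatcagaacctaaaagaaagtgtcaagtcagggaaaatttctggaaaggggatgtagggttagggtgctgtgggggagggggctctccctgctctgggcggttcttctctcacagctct

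The C3 window held its C/EBP match 45 bases before the start, and 9.56% of 32851 promoter windows of this length held that motif. The PU.1 core stood 30 bases before the RefSeq start of C1qb and 193 before that of C1qc, and 23.3% of windows held it. The kappa B match named next for C1qc lies within the gene as placed by GENCODE. Of the other motifs searched on both strands, the kappa B consensus (7.25% of windows) matched in C1qc, the AP-1 motif TGANTCA (6.75%) matched in C3ar1, and the interferon-response motif, GAAA repeated after any 2 bases (2.98%), matched in none of the 6. The C3ar1, C5ar1 and Cfp windows held neither the C/EBP motif nor the PU.1 core. These matches describe letters and do not show binding.

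Libraries held 802478 to 5596316 counts, with a median of 2183480. A single library held 670 to 11386 counts of C3 but 4 to 66 of C3ar1 and 5 to 52 of C5ar1, so the receptors were measured with far less precision. Slc26a4 averaged 12.8 ± 5.67 CPM (normalised counts scaled to a common library size) in KO silica and 1.74 ± 0.851 in KO air lungs at 1 day, against 48.0 ± 16.6 in WT silica and 8.46 ± 3.62 in WT air (SD, n = 6 each). At 9 months 3 air mice stood apart. Chil3, a gene of resident alveolar macrophages, reached 6583 CPM in the mouse labelled KO air replicate 4, 2997 in KO air replicate 5 and 8011 in WT air replicate 5, against 673 to 1083 in the other 9-month air mice and at most 2472 in any other group. The library labelled KO air replicate 4 also held 51.7 CPM of Slc26a4, above every other KO library (at most 36.4). Slc26a4 was counted in KO lungs of the other groups too, and whether the genotype label of this library is right was not tested. Every result that rests on the 9-month air groups is therefore given with and without these 3 mice, an alternative chosen after the data were seen. The search by Chil3 covered only the 9-month air groups, and no silica mouse was left out.

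Levels are given below in normalised CPM, the CPM after TMM scaling of the libraries, and between genes in CPM per kilobase of exon. A gene is called changed where its adjusted p in edgeR's quasi-likelihood test, over all genes tested, was under 0.05. In bulk lung, more cells of a type and more RNA per cell cannot be told apart.

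C3 was by far the most abundant member. At 3 months it stood at 350 ± 52 CPM per kilobase in KO silica lungs and 175 ± 18 in KO air lungs (SD, n = 6 each), above C4b, at 46.2 ± 5.4 and 33.9 ± 6.4. In KO silica lungs Cfb (32.3 ± 5.7), C1qa (28.8 ± 11) and C1qb (26.2 ± 8.4) came next and did not differ from each other beyond their spread. C1qc (12.6 ± 4.7) and Cfp (12.5 ± 2.1) were lower and alike, and C5ar1 (3.51 ± 1.4) and C3ar1 (2.16 ± 0.5) were lowest. The place of C1qc depends on its exon length, 1931 bases over all annotated exons against 1040 for C1qa and 1088 for C1qb. In WT silica lungs the order differed only in that Cfp (12.1 ± 1.6) stood above C1qc (8.5 ± 2.0), and in WT air lungs C1qa (13.1 ± 1.9), C1qb (12.0 ± 3.3) and Cfb (11.3 ± 2.2) lay within each other's spread. C3 in WT lungs was at 347 ± 43 in silica and 181 ± 16 in air, and C3ar1 at 1.88 ± 0.37 in silica and 1.06 ± 0.33 in air.

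**Figure D1:**
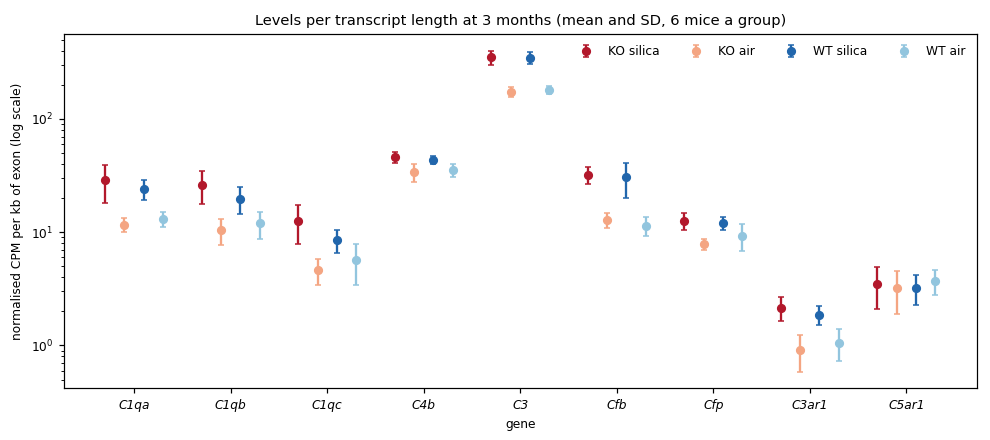
Mean level of each gene at 3 months in normalised CPM per kilobase of exon, on a log axis, with SD bars over 6 mice in KO silica, KO air, WT silica and WT air. C3 stands above the rest, C4b, Cfb, C1qa and C1qb follow, and the receptors C3ar1 and C5ar1 are lowest.

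At 1 day after silica, Cfb of the alternative route and C3, where the routes meet, rose in both genotypes, Cfb by 1.54 on the log2 scale in KO and 1.61 in WT lungs and C3 by 1.02 and 0.90. In KO lungs 3 of 9 members were called higher, C3, Cfb and C1qb, where 1.7% of 12558 tested genes were called higher, and in WT lungs 2 of 9 were, C3 and Cfb, where 1.95% were. The median log2 fold change of the 9 members was 0.66 in KO lungs and 0.23 in WT lungs, beside 0.00 over all genes in both.

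C3, the protein at which the routes meet, had 1293, 1692 and 2143 CPM (lowest, median, highest) in KO silica lungs at 1 day against 749, 864 and 899 in KO air lungs, and 1139, 1499.6 and 1691 in WT silica against 699, 765 and 842 in WT air. Every silica mouse lay above every air mouse of its genotype. The silica effect on the log2 scale was 1.02 with a standard error of 0.10 (adjusted p = 8.85e-09) in KO lungs and 0.90 (0.10, adjusted p = 1.59e-07) in WT lungs. At 3 months C3 was still high, with 1335, 1899 and 2033 CPM in KO silica against 769, 884 and 1041 in KO air, and 1559, 1740 and 2189 in WT silica against 879, 904 and 1088 in WT air. The rise was 1.00 ± 0.09 in KO lungs and 0.94 ± 0.09 in WT lungs on the log2 scale (standard error), with adjusted p = 2.65e-09 and 1.22e-08 in edgeR.

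Cfb, factor B, whose cleaved form is the enzyme of the alternative route, gave the largest fold changes of the 9 at 1 day in both genotypes and at 3 months in WT lungs. In KO lungs it had 67.8, 80.8 and 97.6 CPM after silica against 22.3, 27.8 and 36.2 in air at 1 day. In WT lungs it had 54.8, 78.8 and 103 CPM after silica against 20.9, 25.7 and 30.4 in air, so that no silica mouse overlapped an air mouse. On the log2 scale silica exceeded air by 1.54 (SE 0.14, adjusted p = 3.20e-09) in KO and 1.61 (0.14, adjusted p = 3.33e-10) in WT lungs. At 3 months it stood at 64.6, 93.7 and 109 CPM in KO silica against 27.1, 36.6 and 42.6 in KO air, and at 65.5, 75.3 and 145 in WT silica against 27.2, 28.6 and 40.6 in WT air. The highest WT silica mouse, at 145 CPM, was well above its group. Its rise there was 1.32 ± 0.16 in KO and 1.45 ± 0.16 in WT lungs on the log2 scale, with adjusted p = 1.30e-06 and 1.92e-07.

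The C1q chains, which form the recognition head of the classical route, were mostly not called at 1 day. Of the chains C1qb in KO lungs was called, with 12.5, 18.6 and 23.3 CPM after silica against 4.96, 11.1 and 15.0 in air, overlapping groups, and a difference of 0.70 on the log2 scale with a standard error of 0.19 (adjusted p = 0.0404). That call was lost in 9 of 24 fits that left out 1 mouse, where adjusted p reached at most 0.134, and in the model of all 70 libraries (adjusted p = 0.369) and with only the compared groups (0.116). C1qa and C1qc were not called at 1 day, with log2 fold changes of 0.28 and 0.63 in KO and 0.23 and 0.41 in WT lungs. Nor were the 4 remaining members: Cfp gave 0.71 in KO and 0.19 in WT lungs, C3ar1 0.66 and 0.07, C4b 0.11 and 0.23, and C5ar1 -0.18 and -0.32.

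By 3 months C1qa had 21.8, 26.2 and 50.3 CPM in KO silica lungs against 10.3, 11.8 and 14.9 in KO air, and 21.0, 23.8 and 34.8 in WT silica against 11.7, 13.0 and 17.1 in WT air, again with no overlap in either genotype. It rose by 1.32 ± 0.19 on the log2 scale in KO (adjusted p = 2.05e-05) and by 0.90 ± 0.18 in WT lungs (adjusted p = 0.00258). C1qb reached 19.5, 25.9 and 45.6 CPM in KO silica against 7.47, 11.2 and 15.9 in KO air, up by 1.31 on the log2 scale (0.22, adjusted p = 0.000171). In WT lungs C1qb had 13.4, 19.7 and 28.6 CPM after silica against 9.01, 13.1 and 18.7 in air, and its log2 fold change of 0.67 (0.21) was not called, with adjusted p = 0.0801. C1qc, the third chain, had 13.4, 23.4 and 40.1 CPM in KO silica against 6.24, 9.02 and 12.6 in KO air, so it rose by 1.38 (0.24, adjusted p = 0.000443). In WT lungs C1qc had 11.4, 15.7 and 22.0 CPM after silica against 6.67, 10.3 and 18.7 in air (0.57 ± 0.24, adjusted p = 0.249). A single KO silica mouse, replicate 3, held the highest C1qa (50.3 CPM) and C1qb (45.6) of its group. It also held the group's lowest C3 (1335) and Cfb (64.6). Without it the KO rises of C1qa, C1qb and C1qc were 1.09, 1.09 and 1.13 on the log2 scale and were still called.

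**Figure D2:**
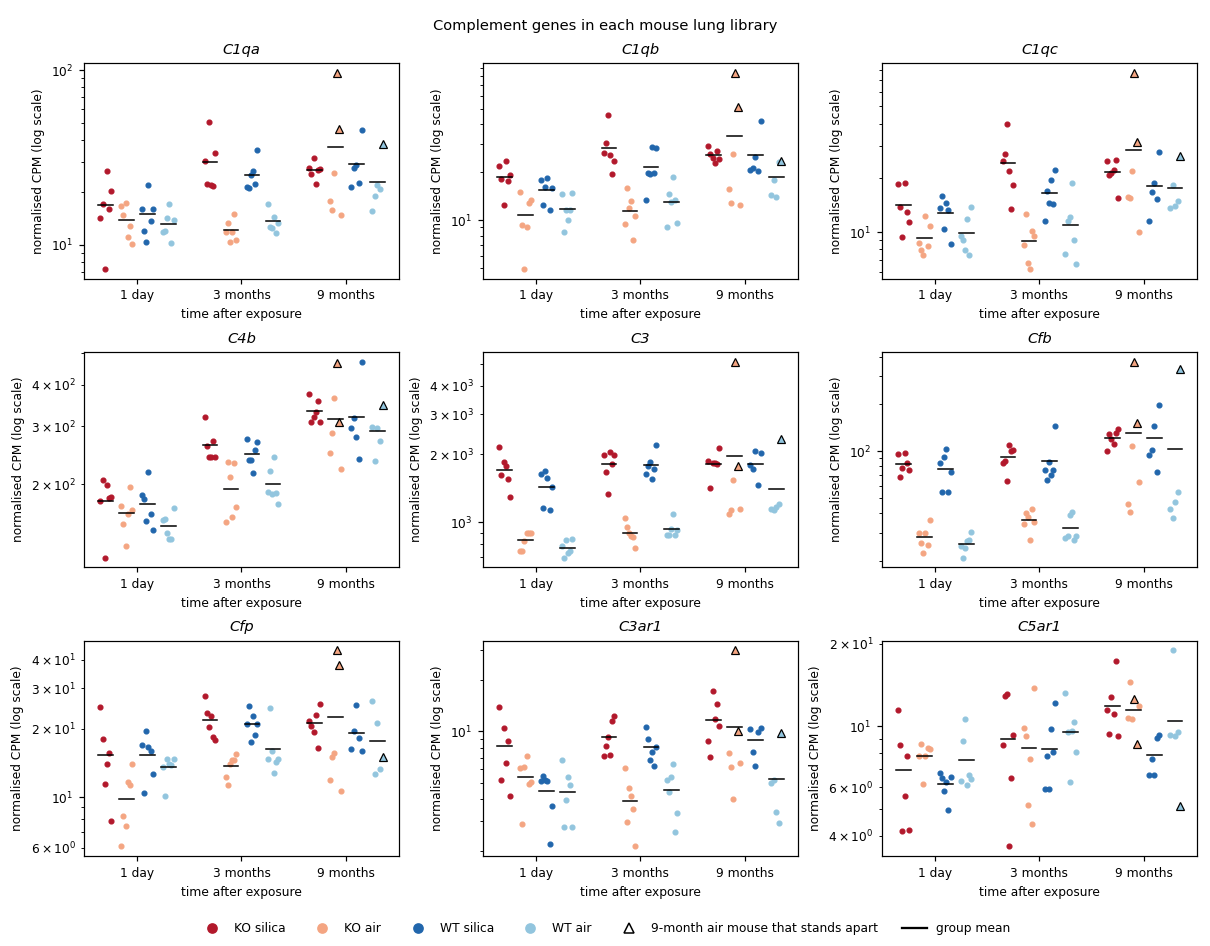
Normalised CPM of each gene in each of 70 libraries, on log axes, by time after exposure (1 day, 3 months, 9 months), with KO silica, KO air, WT silica and WT air from left to right and black lines for group means. Triangles mark the 3 air mice of 9 months that stand apart, of which KO air replicate 4 had the highest C3 of all, at 5118 CPM.

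C4b, the protein cut early in the classical route, had smaller fold changes. At 3 months it had 242, 251 and 321 CPM in KO silica against 154, 191 and 233 in KO air, where it rose by 0.44 on the log2 scale (0.10, adjusted p = 0.00665). In WT lungs it had 216, 246 and 274 CPM after silica against 175, 189 and 242 in air (0.31 ± 0.10, adjusted p = 0.0874). Its counts may include C4a, as said above. Cfp, properdin, which steadies the alternative enzyme, had 17.8, 21.5 and 27.7 CPM in KO silica at 3 months against 11.3, 14.2 and 15.4 in KO air, with no overlap (0.66 ± 0.16, adjusted p = 0.0125). In WT lungs Cfp had 17.5, 20.9 and 25.1 CPM after silica against 12.8, 14.7 and 24.7 in air (0.30 ± 0.15, adjusted p = 0.368).

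Of the receptors, C3ar1 had 7.15, 8.76 and 12.3 CPM in KO silica lungs at 3 months against 2.13, 3.84 and 6.13 in KO air. In WT lungs it had 6.27, 7.82 and 10.7 CPM after silica against 2.59, 4.80 and 6.41 in air, with slight overlap. It rose by 1.26 (0.24, adjusted p = 0.00125) in KO and by 0.89 (0.23, adjusted p = 0.0234) in WT lungs, and the WT call was lost in 4 of 24 fits without 1 mouse. C5ar1 was not called in any of the 6 comparisons of silica with air. At 3 months it had 3.65, 8.96 and 13.1 CPM in KO silica against 4.39, 8.42 and 13.8 in KO air, and 5.92, 7.95 and 12.2 in WT silica against 6.27, 9.56 and 13.3 in WT air, so the groups overlapped throughout.

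At 3 months, then, 8 of 9 members were called higher in KO lungs, all but C5ar1, where 3.02% of 12647 genes were, and 4 of 9 in WT lungs, C3, Cfb, C1qa and C3ar1, where 2.24% were. The median log2 fold change was 1.26 in KO and 0.67 in WT lungs. In a model of all 70 libraries 2 members were called in WT lungs at 3 months, C3 and Cfb. These counts do not show that the genotypes differ: the difference of the silica effect between KO and WT was tested directly and is given below.

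**Figure D3:**
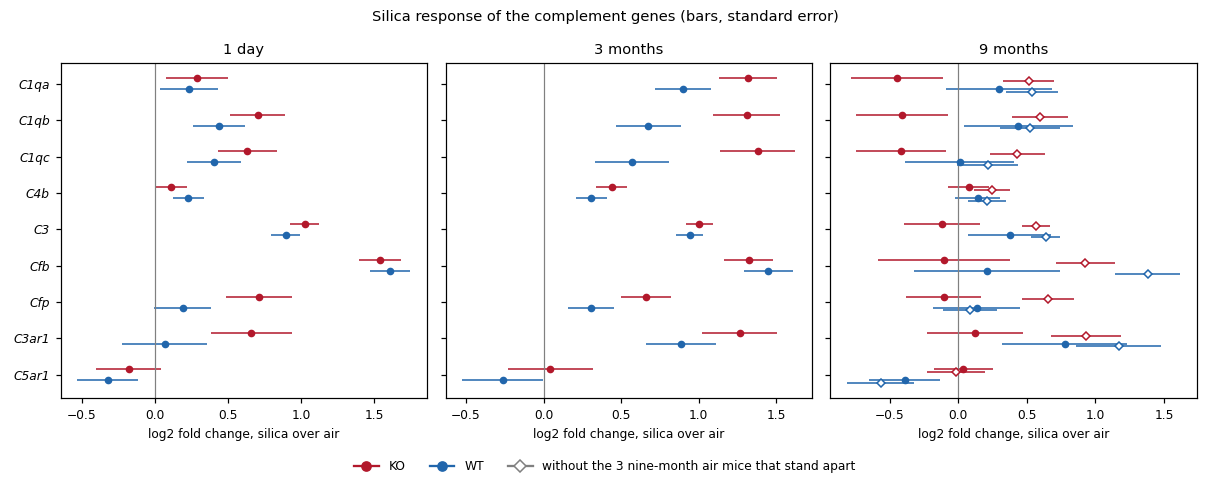
Log2 fold change of silica over air for each gene, with standard error bars, in KO and WT lungs by time after exposure. Cfb and C3 are highest at 1 day, the C1q chains and C3ar1 lie further right at 3 months, and open diamonds at 9 months, without the 3 air mice that stand apart, lie to the right of the filled points for C3, Cfb, C1qa, C1qb and C1qc in both genotypes.

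General macrophage markers were higher with silica as a sum at 1 day and 3 months, though most of them were not called. Other macrophage lists were mixed. The summed CPM of 8 general macrophage genes, of which none was at 0 in any group, ran from 3894 to 4730.4 in KO silica at 1 day against 3099 to 3606 in KO air, and from 3277 to 3749.9 in WT silica against 2695 to 3039.9 in WT air. At 3 months the sum ran from 4121 to 5179 in KO silica against 3129 to 3872 in KO air, and from 3342 to 4679.8 in WT silica against 2967 to 3320.4 in WT air. At each of these times 2 of 7 tested genes of that list were called higher in each genotype. The list's median log2 fold change was 0.04 in KO and 0.19 in WT lungs at 1 day, and 0.22 in both at 3 months. Of interstitial macrophage and monocyte markers 0 of 9 tested were called at 1 day (edgeR), with a median log2 fold change of -0.08 in each genotype, and sums of 593 to 703 in KO silica against 681 to 819 in KO air and of 617 to 707 in WT silica against 636 to 759 in WT air. At 3 months 2 of 10 of them were called higher in each genotype. Of 9 tested resident alveolar macrophage markers at 3 months, 4 were higher and 1 lower in KO lungs (median 0.57), and 2 were higher and 2 lower in WT lungs (median -0.17). Of dendritic cell markers at 3 months, 6 of 6 tested in KO lungs and 5 of 6 in WT lungs were higher, with sums of 69.7 to 134 in KO silica against 45.7 to 58.0 in KO air and of 99.1 to 112 in WT silica against 53.8 to 77.3 in WT air. Alveolar type 2 markers overlapped between silica and air in both genotypes at 3 months, with sums of 11554 to 13005 in KO silica against 11333 to 13433 in KO air, while 2 of 6 of them were called higher and 1 lower in each genotype. Neutrophil markers summed to 74.5 to 185 CPM in KO silica against 75.6 to 117 in KO air at 1 day, and to 87.3 to 132 in WT silica against 60.2 to 84.5 in WT air. Beside these counts, 1.7% of all tested genes in KO and 1.95% in WT lungs were called higher at 1 day. At 3 months 3.02% and 2.24% were, and 225 and 91 of 12647 genes were called lower. The 0 of 9 interstitial markers at 1 day is near that share and says nothing particular of them. The part of the cells of these lists in the complement results was not tested.

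At 9 months no member was called by edgeR in either genotype (0 of 9 each, where 0.125% of 12826 genes were called higher in KO and 0.0234% in WT lungs), none had an unadjusted p under 0.05, and DESeq2 and voom called 0 members as well. Without the 3 air mice that stand apart, 2 of 9 were called in KO lungs, C3 and Cfb, beside 1.47% of genes, and 3 of 9 in WT lungs, C3, Cfb and C3ar1, beside 1.22%. Only air mice were left out, so for members high in those mice the air level alone was lowered.

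C3 had 1423, 1831 and 2118 CPM in KO silica against 1088, 1341 and 5118 in KO air lungs at 9 months. In WT silica the mice had 1468, 1718, 1784, 2026 and 2065 CPM against 1128, 1146, 1174, 1205 and 2333 in WT air. The single highest air mouse in each genotype was one that stands apart. Without those mice the silica effect was 0.56 on the log2 scale (SE 0.10, adjusted p = 0.00113) in KO and 0.64 (0.10, adjusted p = 0.000289) in WT lungs, against -0.12 (0.28) and 0.38 (0.30) with them. Cfb gave 0.93 (0.21, adjusted p = 0.0157) in KO and 1.38 (0.24, adjusted p = 0.000551) in WT lungs without them, against -0.10 (0.48) and 0.21 (0.53) with them. C3ar1 in WT lungs had 6.23, 7.59, 9.91, 10.3 and 10.4 CPM after silica against 2.91, 3.37, 4.99, 5.17 and 9.79 in air, and 1.17 (0.31, adjusted p = 0.0447) without them. In KO lungs its log2 fold change without them of 0.93 (0.25) was not called, with adjusted p = 0.0526. With all mice C3ar1 stood at 2.71 ± 0.85 CPM per kilobase in KO silica against 2.47 ± 2.2 in KO air lungs (SD). In WT lungs it stood at 2.07 ± 0.44 against 1.22 ± 0.63. Fits that left out 1 mouse at a time gave -0.049 to 0.76 on the log2 scale in KO and 0.60 to 1.17 in WT lungs.

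The mouse labelled KO air replicate 4 was highest of all 70 for C3, Cfb, C1qa, C1qb, C1qc, Cfp and C3ar1. It had 96.6 CPM of C1qa, 83.6 of C1qb, 76.9 of C1qc, 44.1 of Cfp and 29.7 of C3ar1, that is 5.21, 5.02, 4.89, 3.32 and 4.92 times the mean of the other 4 KO air mice. KO air replicate 5 had 151 CPM of Cfb and 51.3 of C1qb, 2.35 and 3.08 times that mean, and WT air replicate 5 had 335 of Cfb, 7.35 times the mean of the other 4 WT air mice. General macrophage markers summed to 8751 and 7775 CPM in the KO pair and 10308 in the WT mouse, against 3547 to 4983 in the other 8 air mice of 9 months. In the same order, interstitial macrophage and monocyte markers summed to 802, 716 and 773 CPM, against 678 to 803. Endothelial markers were lower, at 1285, 1543 and 1101 against 1658 to 2105. Lymphoid markers were at 254, 232 and 806 against 76.3 to 316. C5ar1 was not above the highest of the other air mice of its genotype in any of the 3, at 12.6, 8.63 and 5.13 CPM. Nor was every other member raised in all 3 mice. Cfp in WT air replicate 5 was 0.81 times the mean of the others. C4b in KO air replicate 5 was 1.10 times that mean and below the highest of them. C1qb in WT air replicate 5 (23.32 CPM) barely passed the highest of the others (23.25). What moves these mice apart was not tested.

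Genotype gave no call on any member. These comparisons can miss large differences, as the targeted gene itself was not always called (edgeR, all mice). Slc26a4 was called lower in KO lungs after silica at 1 day and 3 months and in air at 3 months. It was not called after silica at 9 months (-2.16 on the log2 scale) or in air at 1 day (-2.15) and 9 months (-1.01). A count of 0 of 9 therefore does not show that the genotypes are alike. KO against WT lungs after silica, and KO against WT lungs in air, had 0 of 9 called at each of 3 times by edgeR, DESeq2 and voom. The share of all genes called in either direction was 0.00796% after silica and 0.0478% in air at 1 day, 0.174% and 0.142% at 3 months, and 0% and 0.0156% at 9 months. At an unadjusted p under 0.05 there were 2 members after silica and 1 in air at 1 day, 2 and 0 at 3 months, and 1 and 2 at 9 months. The largest difference after silica was C3ar1 at 1 day, 8.15 ± 3.59 CPM in KO against 4.46 ± 1.27 in WT lungs (SD, n = 6 each), a log2 fold change of 0.87 (0.28, adjusted p = 0.434). Without the 3 air mice that stand apart 0 members were called at 9 months in either exposure, beside 0.00779% of genes after silica and 0.0312% in air, with 1 and 0 members at an unadjusted p under 0.05.

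The silica effect itself did not differ between genotypes past the threshold at any time (edgeR, DESeq2 and voom, 0 of 9 called, where 0% of all genes was at each of the 3 times). The most different members at 3 months were C1qc (KO minus WT 0.81 ± 0.34 on the log2 scale, adjusted p = 0.591) and C1qb (0.64 ± 0.30, adjusted p = 0.638), the 2 members with an unadjusted p under 0.05 there, while C3 gave 0.06 ± 0.12 and Cfb -0.13 ± 0.23. There were 0 such members at 1 day and 0 at 9 months. Without the 3 air mice 0 of 9 were called at 9 months, beside 0.00779% of genes, with 1 member at an unadjusted p under 0.05. There the difference for Cfb was -0.45 ± 0.32 and for C3 -0.07 ± 0.14, against -0.31 ± 0.72 and -0.49 ± 0.41 with all mice.

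Over time, the response of KO lungs was smaller at 9 months than at 3 months for 4 of 9 members, where 0.724% of 13252 genes were called lower in that difference: C1qc (-1.80, standard error 0.39, adjusted p = 0.0128), C1qa (-1.76, 0.38), C1qb (-1.72, 0.38) and C3 (-1.12, 0.27, adjusted p = 0.0216). Without the 3 air mice 0 of 9 were called, beside 0.00752% of genes, with 4 members at an unadjusted p under 0.05. Leaving out KO air replicate 4 alone also left 0. In WT lungs 0 of 9 were called lower (0% of genes, with or without the 3 mice), with 2 members at an unadjusted p under 0.05 and 1 without the mice. From 1 day to 3 months the silica effect of no member changed past the threshold in KO or WT lungs (0% of genes each), though C1qa in KO lungs had an unadjusted p under 0.05, with a difference of 1.03 (0.43, adjusted p = 0.724).

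Air lungs of 9 months were compared with those of 3 months. In comparisons of air lungs between times, age, time after exposure and any batch of a time cannot be told apart. In KO lungs 8 of 9 were called higher, all but C5ar1, beside 9.8% of genes, and in WT lungs 3 of 9, C3, Cfb and C4b, beside 6.34%. Without the 3 mice that stand apart 4 of 9 held in KO lungs, C3, Cfb, C1qc and C4b, beside 3.84%, and 1 of 9 in WT lungs, C4b, beside 2.9%. C4b is the member whose air level was higher at 9 months in both genotypes with or without those mice: 281 ± 62.2 CPM in 4 KO air mice of 9 months against 193 ± 36.3 in 6 of 3 months, and 275 ± 29.8 in 4 WT air mice against 200.4 ± 25.5 in 6 (SD), log2 fold changes of 0.55 (0.13, adjusted p = 0.00295) and 0.46 (0.13, adjusted p = 0.0189). Leaving out WT air replicate 5 alone left C4b only, and leaving out KO air replicate 4 gave 5 members in WT lungs. From 1 day to 3 months in air no member was called by edgeR in either genotype (0% of genes in KO, 0.0226% in WT), and voom called 1 in WT lungs, where C4b was also the only member with an unadjusted p under 0.05 (0 in KO).

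The rest of the pathway was taken from a list of 44 other complement genes, of which 22 to 24 were tested. At 1 day 3 were called higher in KO lungs (Itgax, C1ra and C1s1) and 2 in WT lungs (Itgax and C7); at 3 months 4 were higher in each genotype (Itgb2, Itgax, C1s1 and C1ra), and C1ra, C1s1, Itgax, Itgb2 and C7 were thus the genes called. The median log2 fold change of the tested list at 3 months was 0.04 in KO and 0.03 in WT lungs, next to 0.00 and -0.01 over all genes. C1ra and C1s1 are the proteases bound to C1q. C1ra had 77.4 ± 13.6 CPM in KO silica against 57.0 ± 7.24 in KO air at 3 months (0.44 ± 0.10, adjusted p = 0.0103). Itgax and Itgb2 encode the 2 chains of complement receptor 4; Itgax had 102 ± 41.7 CPM in KO silica against 59.2 ± 5.64 in KO air (0.81 ± 0.16, adjusted p = 0.00235) and 85.7 ± 17.1 in WT silica against 52.7 ± 8.13 in WT air (0.73 ± 0.16, adjusted p = 0.0071). Regulators that restrain complement had 0 of 10 tested members called at 3 months in either genotype by edgeR, DESeq2 or voom, with 1 at an unadjusted p under 0.05 in each, Cpn1 in KO and Cd55 in WT lungs. With 3.02% and 2.24% of all genes called higher there, 0 of 10 is near the background and says nothing particular of regulators. At 9 months edgeR called 0 of 23 genes of the list in each genotype, with 2 in KO and 4 in WT lungs at an unadjusted p under 0.05, DESeq2 called 0 and voom 1 in KO lungs. Without the 3 mice C1ra rose in KO lungs (0.42 ± 0.11, adjusted p = 0.042), while in WT lungs Itgax rose (0.83 ± 0.17) and Vtn, vitronectin, fell by 0.85 (0.22).

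**Figure D4:**
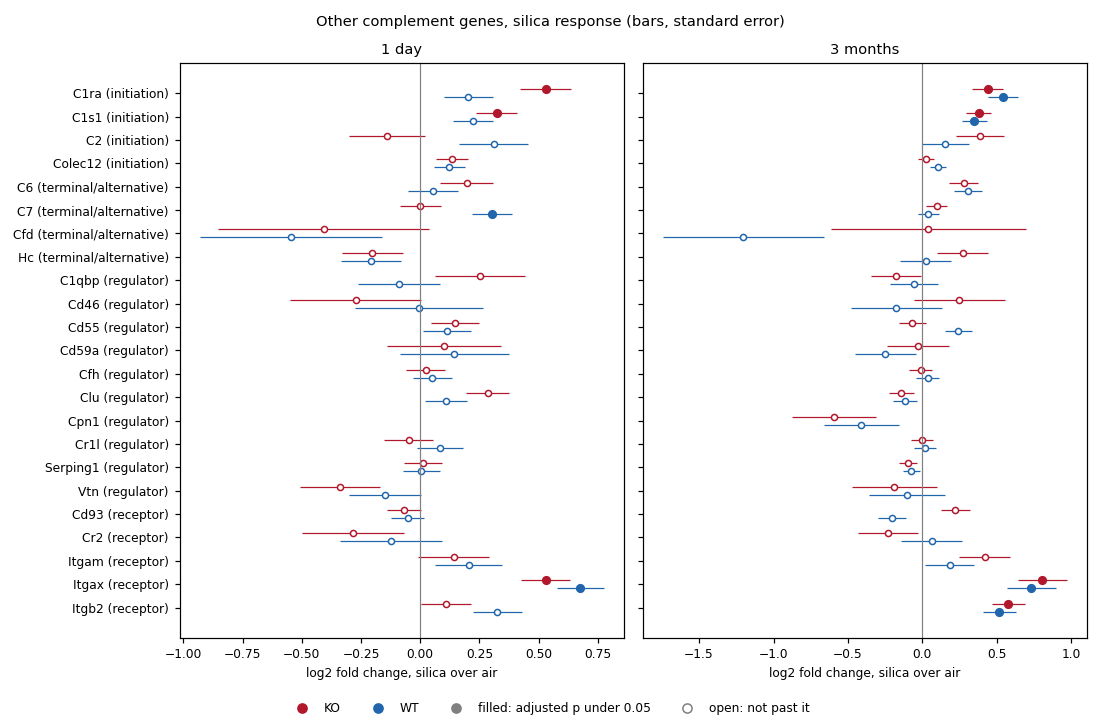
Log2 fold change of silica over air for 23 other complement genes at 1 day and 3 months, with standard error bars, in KO and WT lungs; filled points passed adjusted p under 0.05. The 4 filled genes at 3 months are C1ra, C1s1, Itgax and Itgb2 in both genotypes.

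For each member the 3 genes whose mean log2 CPM over 12 groups was most like it were found among 12003 genes, leaving out members, and the similarity is given as Pearson's r over 12 group means. It is a description with no test, and the highest r of 12003 genes over 12 means can be high by selection alone. C3 was most like Ptafr, the receptor of platelet-activating factor (r = 0.97), Il1rn (0.97) and Nfkbie (0.97). Cfb was most like Lilrb4a, Cd83 and Ccl6 (0.98 each), C1qa like H2-DMb1 (0.96), C1qb like Cotl1 (0.96), C1qc like Lilr4b (0.95), and C3ar1 like the scavenger receptor Msr1 (0.93). C4b was most like C6, a component of the terminal pathway (0.99), Cfp like Adam8 (0.95) and C5ar1 like Ccdc37 (0.95). Without the 3 mice that stand apart the same pairs gave 0.95 for Ptafr, 0.97 for Il1rn and 0.98 for Nfkbie with C3. Lilrb4a, Cd83 and Ccl6 gave 0.98 each with Cfb, H2-DMb1 0.94 with C1qa, Cotl1 0.95 with C1qb and Lilr4b 0.93 with C1qc. Msr1 gave 0.94 with C3ar1, C6 0.97 with C4b, Adam8 0.90 with Cfp and Ccdc37 0.96 with C5ar1. Of these, Nfkbie, C6 and Msr1 ranked 1 for their member without the mice, while Ptafr ranked 22 for C3 and H2-DMb1 13 for C1qa.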

How the data were processed

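The deposited table holds raw counts per gene, the unit used for every test. Per the submitters' processing notes, HTSeq 0.11.2, HISAT2 2.1.0, SAMtools 1.8, Trimmomatic 0.35, bcl2fastq 2.19 and Cufflinks were used, with the build mm10; per the labels' protocols, libraries were TruSeq Stranded Total RNA after ribosomal depletion. Which gene models were counted, and whether by strand, is not given in the sources used here. Of 24439 rows, 19 repeated a gene and were dropped.

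Libraries of each time were fitted together (4 groups, 12558, 12647 and 12826 genes after filterByExpr), and comparisons over times used all 12 groups (13252 genes), with R 4.3.3, edgeR 4.0.16 quasi-likelihood tests, TMM scaling and Benjamini-Hochberg adjustment over genes. A standard error was taken as the size of the log2 fold change divided by the root of its F statistic. DESeq2 1.42.0 and limma 3.58.1 were alternatives. The fit was tested on simulated data. Exon length is the union of GENCODE exons. Mice numbered within a group were not paired. P values weigh a difference between groups against the spread between these mice. The named genes are the 9 members, up to 4 called pathway genes a comparison and 3 most like genes a member. Members, lists and tests were chosen with earlier results of these data known. Figures were drawn with matplotlib 3.10.9, and tables with pandas 2.3.3 and numpy 2.4.6 in Python 3.11.15.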

Additional observations from a re-analysis of the deposited data

Results flagged for a closer look

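Of 108 groups of 5 or 6 mice (9 members in 12 groups), 15 had a mouse far from the rest of its group. For normal and independent values chance alone flags about 1 group in 20. The values were CPM without a log, and the 9 members were measured in the same mice, so that share is only a rough guide. Of the 3 air mice of 9 months that stand apart, KO air replicate 4 and WT air replicate 5 account for 7 of them. KO air replicate 4 was high in C3 (5118 CPM), Cfb (372), C1qc (76.9) and C3ar1 (29.7), and WT air replicate 5 in C3 (2333), Cfb (335) and C1qa (37.8). The other high values were C3 in WT air of 3 months (1088), Cfb in WT silica of 3 months (145), C1qb in WT silica of 9 months (41.7), C4b in KO silica of 3 months (321) and Cfp in WT air of 3 months (24.7). Low values were C4b in KO silica of 1 day (120.1), Cfp in WT air of 1 day (10.1) and C5ar1 in KO air of 1 day (6.20).

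The silica effect of KO lungs differed between 9 and 3 months, by a test of the difference, for C3 (-1.12), C1qa (-1.76), C1qb (-1.72) and C1qc (-1.80) on the log2 scale. Without the 3 air mice these were -0.45, -0.82, -0.73 and -0.96, and none was called.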

How the results depend on the processing

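Counts of called members were recomputed under voom with quality weights, no filter on counts, a filter on a mean of at least 1 CPM, DESeq2's Wald test, its size factors within edgeR, all 70 libraries in 1 model, only the compared groups, each library left out, and without the 3 air mice (an alternative chosen after the data were seen). Of 151 such counts outside the leave-one-out fits, 143 stayed within 1.5 times the count reported. Many of the 143 were comparisons with 0 members called in both fits, which were scored as unchanged. In WT lungs at 3 months the model of all libraries called 2 members. Without the 3 air mice the silica comparison of 9 months called 2 in KO and 3 in WT lungs, air of 9 against 3 months called 4 in KO and 1 in WT lungs, and the 9 minus 3 month silica difference in KO lungs called 0. Voom also called 0 there, and 1 member in WT air of 3 months against 1 day. Leaving out 1 library gave 2 to 4 members in KO lungs at 1 day, 3 to 6 in WT at 3 months, 0 to 5 in the KO difference of 9 minus 3 months, 6 to 8 in KO air and 1 to 5 in WT air of 9 against 3 months. No paired analysis was possible because the labels give no number shared between groups.

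At 9 months in KO lungs voom turned the sign of C3 (0.43), Cfb (0.79), C1qa (0.30), C1qb (0.39), C1qc (0.24), Cfp (0.45) and C5ar1 (-0.0094), and leaving out the 3 air mice gave 0.56, 0.93, 0.51, 0.60, 0.43, 0.65 and -0.016. Voom gave C5ar1 -0.11 in KO lungs at 3 months, and Cfp in KO air of 9 against 3 months was -0.013 without the 3 mice. The cause was not tested. Among fits without 1 library, log2 fold changes that crossed 0 ranged at 9 months in KO lungs from -0.24 to 0.44 (C3), -0.29 to 0.57 (Cfb), -0.60 to 0.14 (C1qa), -0.58 to 0.10 (C1qb), -0.57 to 0.17 (C1qc), -0.0024 to 0.22 (C4b), -0.25 to 0.20 (Cfp), -0.049 to 0.76 (C3ar1) and -0.093 to 0.12 (C5ar1), in WT lungs from -0.023 to 1.39 (Cfb), -0.19 to 0.22 (C1qc) and -0.036 to 0.23 (C4b), and earlier from -0.15 to 0.24 (C5ar1, KO, 3 months) and -0.071 to 0.19 (C3ar1, WT, 1 day). Low counts of C3ar1 and C5ar1 limit their precision.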
